A study of Homo sapiens with 6 samples.

Results

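The MYC network is a set of basic helix-loop-helix leucine zipper transcription factors that share MAX as a partner, and 10 of its genes (MYC, MYCN, MYCL, MAX, MXD1, MXD3, MXD4, MXI1, MNT and MLX) are described here in cells derived from the human embryonic kidney line HEK293. They were chosen by name, when earlier results had already shown the excess of the MYCN doxycycline response in ubAPE1 over vector cells. Members were the array rows whose only gene symbol was one of these names, which gave 11 rows for 10 genes among 15492 rows and 12448 genes in all (1 further row that named MLX with another gene was left out). The 6 groups were a line with the HEK293/pcDNA-FRT empty vector (vector), a line with inducible wild-type APE1 (wtAPE1) and a line with an inducible ubiquitin-APE1 fusion (ubAPE1), each left untreated or given doxycycline (2 µg per ml, 16 h). In the tet-on design doxycycline induces the transgene, and every group, controls included, was kept in puromycin (1 µg per ml). APEX1 encodes APE1, a base excision repair enzyme that cuts DNA at abasic sites, and the design asks what either form of it changes beyond doxycycline. Each group is 1 deposited column that the authors averaged from 3 biological replicates, so no spread between replicates is given below and differences between single columns carry no test. Whether a line is a single clone is not given in the sources used here.

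MYC, MYCN and MYCL proteins bind DNA only as dimers with MAX, at E-box sequences of which CACGTG is the best known, and raise the expression of genes for ribosome production, metabolism and cell division. MXD1, MXD3, MXD4, MXI1 and MNT compete for MAX and recruit SIN3 corepressors to the same sites, so that the balance between the sides sets the output. MLX is a second partner protein, which pairs with some MXD proteins, with MNT and with the glucose-sensing factors MLXIP and MLXIPL. MYC is the widely expressed member in growing cells, whereas MYCN is best known from the embryonic nervous system, the developing kidney and neuroblastoma.

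APEX1, the gene carried by the transgenes, checks the labels. As deposited, its doxycycline response was 0.12 log2 in vector cells, 1.18 in wtAPE1 cells and 0.75 in ubAPE1 cells. The column medians over the rows used lay between 6.56 and 6.81 log2, and the median row moved with doxycycline by -0.05, 0.07 and -0.13 log2 in the vector, wtAPE1 and ubAPE1 lines. Differences are therefore given relative to the median row, so each has the median of that difference over kept rows taken off, unless they are called as deposited. Of 9 embryonic kidney and HEK293 markers with a row, 8 were kept by the filter on dim rows, with a mean level over the 9 rows of 7.39 to 7.66 log2 in the 6 columns. Epithelial markers (6 rows, 4 of them kept) averaged 5.92 and 5.96 log2 in vector cells and 5.13 to 5.29 in the APE1 lines. Neuronal markers (3 of 5 rows kept) averaged 6.08 to 6.30 log2 over the columns, fibroblast markers (4 of 4 kept) 5.54 to 5.74 and blood markers (2 of 3 kept) 5.19 to 5.52. Their part in the results below was not tested, and in such bulk RNA fewer cells of a type and less RNA per cell cannot be told apart.

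The promoters of 2 members are shown because these genes had response differences between lines past 1.5-fold, given below, and hold recognisable motifs. The windows run from 250 bases before to 50 bases after the start site, from RefSeq on GRCh38.p14, and 12 such windows were matched for 9 members, all but MYC. Capitals in the MYCN promoter (chr2:15940300-15940599, plus strand) mark a stretch in which TTTGGCGC and, on the other strand, TTTCGCGC overlap, the form of site bound by E2F factors. Capitals in the MLX promoter (chr17:42566850-42567149, plus strand) mark the E-box CACGTG.
MYCN: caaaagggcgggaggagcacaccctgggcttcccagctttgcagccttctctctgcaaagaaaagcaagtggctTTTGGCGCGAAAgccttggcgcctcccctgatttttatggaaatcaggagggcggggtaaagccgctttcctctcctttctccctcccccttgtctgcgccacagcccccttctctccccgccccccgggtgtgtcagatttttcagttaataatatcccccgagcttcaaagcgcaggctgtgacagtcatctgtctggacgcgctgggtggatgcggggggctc
MLX: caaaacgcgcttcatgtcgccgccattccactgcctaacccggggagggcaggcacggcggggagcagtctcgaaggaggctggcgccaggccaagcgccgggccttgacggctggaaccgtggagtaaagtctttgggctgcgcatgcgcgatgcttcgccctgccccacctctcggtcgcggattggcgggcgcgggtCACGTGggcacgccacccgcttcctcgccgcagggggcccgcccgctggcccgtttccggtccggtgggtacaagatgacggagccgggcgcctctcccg
The E-box CACGTG was also found in the promoters of MNT (position -193) and MXD4 (position -238), against position -50 in MLX, all counted from the start site. The motif, which reads the same on both strands, was in 3 of 12 promoter windows of the members, and in 7.26% of 35116 RefSeq windows of the same length. A match to TTTGGCGC or TTTCGCGC on either strand, which was in the MYCN window at positions -176 and -172, was in 1 of the 12 windows and in 1.15% of the 35116. The windows of MXI1, whose response differences between lines given below were close to those of MLX, held neither motif. A match describes these letters and says nothing of whether a factor was bound.

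Levels are given by role, starting with the activators. MYC stood at 9.27 log2 without and 9.10 with doxycycline in vector cells, at 9.25 and 9.27 in wtAPE1 cells, and at 9.20 and 9.14 in ubAPE1 cells. Its 6 values as deposited spanned 0.17 log2, the narrowest range of the 10 members with a kept row. With column medians taken off, the MYC range was 0.34 log2, wider than that of MNT (0.31) and MAX (0.33). MYCN stood at 7.34 and 6.71 log2 in vector cells, at 7.29 and 7.42 in wtAPE1 cells, and at 7.12 and 7.66 in ubAPE1 cells. Its range of 0.94 log2 was the widest of the kept members, with the lowest column in the treated vector line and the highest in the treated ubAPE1 line. A second MYCN row was dim and did not pass the filter (a mean over the 6 columns of at least 5.03 log2). That row read 3.99 and 4.04, 3.92 and 4.04, and 4.12 and 3.89 log2 in the same order, so it did not show the pattern of the brighter row. MYCL, the third activator, read 5.45 and 5.22 log2 in vector cells, 5.33 and 5.44 in wtAPE1 cells, and 5.33 and 5.55 in ubAPE1 cells.

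MAX, the obligate partner, read 5.86 and 5.75 log2 in vector cells, 5.78 and 5.88 in wtAPE1 cells, and 5.98 and 5.92 in ubAPE1 cells, a range of 0.23. MLX, the parallel partner, read 7.83 and 7.48 log2 in vector cells, 7.34 and 7.60 in wtAPE1 cells, and 7.46 and 7.66 in ubAPE1 cells. As deposited, the untreated vector column was the highest of the MLX values and the untreated wtAPE1 column the lowest. With column medians taken off, MLX was highest in the treated ubAPE1 column (1.08 log2) and lowest in the untreated ubAPE1 column (0.71).

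Among the repressors, MXD1 had the widest range, 0.74 log2. It read 6.49 and 6.35 log2 in vector cells, 6.06 and 5.76 in wtAPE1 cells, and 6.21 and 5.82 in ubAPE1 cells, so that both vector columns lay above the 4 columns of the APE1 lines and each treated column lay below its untreated one. MXD3 read 6.38 and 6.33 log2 in vector cells, 6.56 and 6.45 in wtAPE1 cells, and 6.53 and 6.15 in ubAPE1 cells. MXD4 read 7.12 and 7.08 log2, 7.33 and 7.24, and 7.33 and 7.28 in the same order, with both vector columns below the other 4. MXI1, which like the MXD proteins opposes MYC at E-boxes, read 7.70 and 7.33 log2 in vector cells, 7.36 and 7.59 in wtAPE1 cells, and 7.42 and 7.52 in ubAPE1 cells. MNT, the broadly expressed repressor, read 6.07 and 6.09, 5.91 and 6.13, and 6.08 and 6.15 log2. Values of different genes come from different probes, so levels are set against each other only within a gene.

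**Figure D1:**
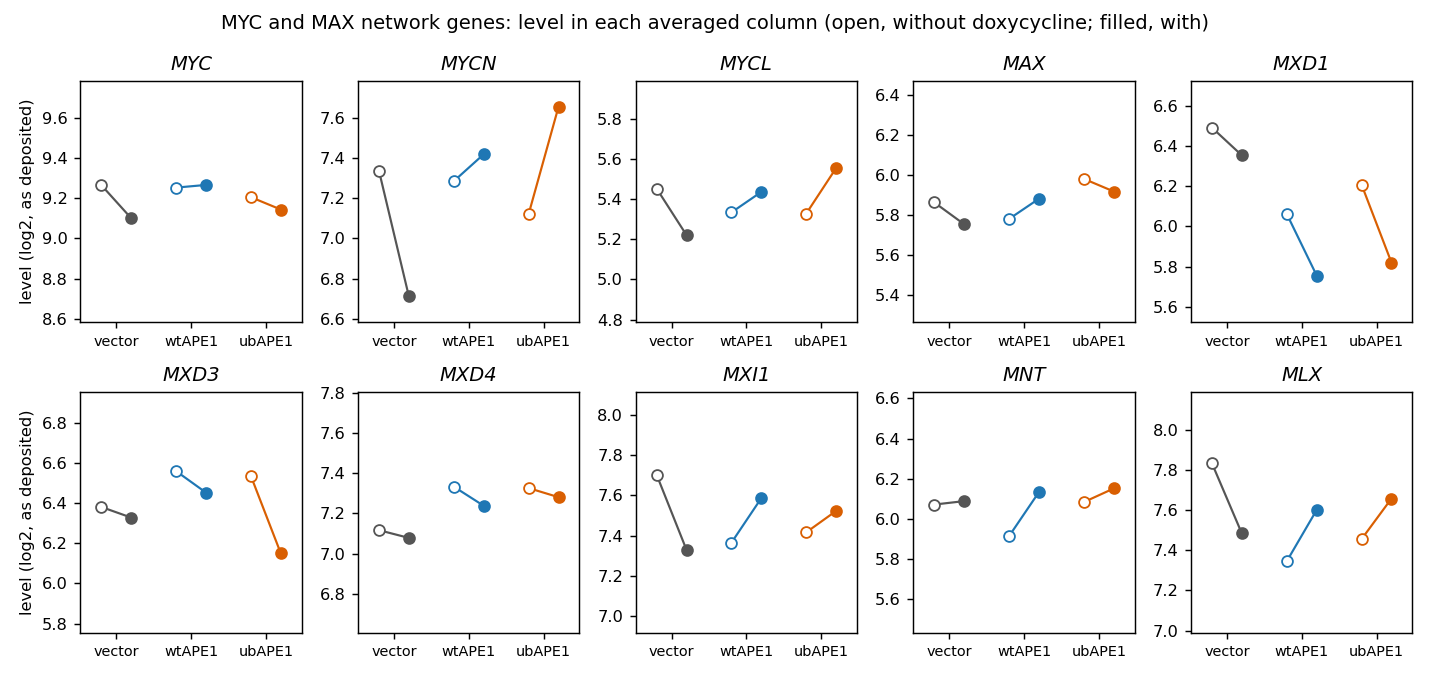
Level of each member with a kept row in the 6 averaged columns (y axis: log2 as deposited, the same span in each panel). Open points are columns without doxycycline and filled points columns with it, joined within a line. MYCN runs from 6.71 in the treated vector column to 7.66 in the treated ubAPE1 column, while MYC stays between 9.10 and 9.27.

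The response to doxycycline was described within each line. Because the MYCN response was among the values known when the network was selected, it is given as a description. In vector cells, 0 of the 10 kept members were at least 1.5-fold from the median row, a size reached by 0.947% of 11619 kept rows in either direction. MYCN came closest at -0.580 log2, just short of the limit of 0.585, and ranked 74 from the bottom. MXI1 (-0.33 log2) and MLX (-0.30) followed, then MYCL (-0.19) and MYC (-0.12), and 8 of 10 members lay below the median row, with a median of -0.11.

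In wtAPE1 cells, 0 of 10 members passed 1.5-fold, against 0.93% of rows. The member farthest from the median row was MXD1 at -0.38 log2, rank 275 from the bottom, whereas MLX (0.18), MXI1 (0.15) and MNT (0.15) lay above it. MYCN was at 0.06 log2 and MYC at -0.06 (0.01 as deposited and with a trend over genomic length removed). The members were split, with 6 above and 4 below the median row and a median of 0.03.

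In ubAPE1 cells, MYCN was the member past 1.5-fold, at 0.66 log2 or 1.58-fold higher, rank 65 from the top. That is 1 of 10 members, beside 1.21% of rows that were at least 1.5-fold higher and 3.81% that were lower. With a trend over genomic length removed, MYCN was at 0.50 log2, and as deposited at 0.53, both short of 1.5-fold. MYCL (0.36 log2), MLX (0.33), MXI1 (0.24) and MNT (0.20) also lay above the median row, and MXD1 (-0.26) and MXD3 (-0.26) below it. With the length trend removed these became 0.19 for MYCL, 0.17 for MLX, 0.42 for MXI1 and 0.14 for MNT. The member median was 0.14 log2, with 8 of 10 above the median row, or 7 of 10 with the length trend removed, where MYC was at -0.10. As deposited, MYC (-0.06), MAX (-0.06) and MXD4 (-0.05) lay below 0 in this line, where the median row itself moved by -0.13.

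**Figure D2:**
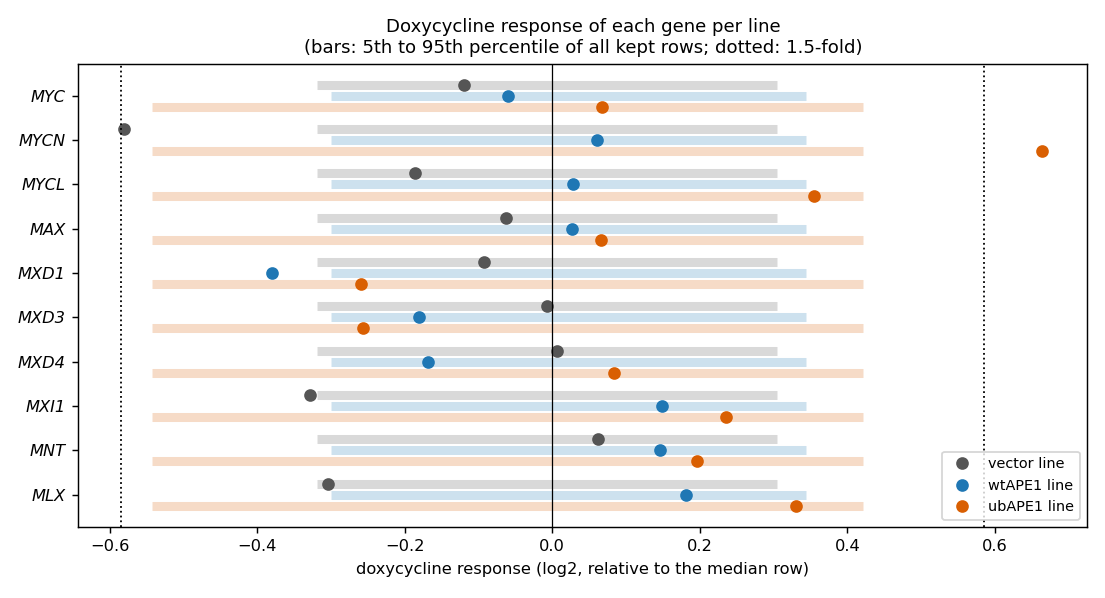
Doxycycline response of each member in the 3 lines (x axis: log2 relative to the median row). Points are differences between 2 averaged columns, shaded bars are the 5th to 95th percentile of all kept rows in that line, and dotted lines mark 1.5-fold. MYCN lies at -0.58 in vector cells and 0.66 in ubAPE1 cells, outside the bar of either line.

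MYCN, MYCL, MAX, MXI1 and MLX lay below the median row in the vector response and above it in both APE1 lines. That pattern was seen in 5 of 10 members and in 11.6% of kept rows. MYCN is among the 5, and its excess in ubAPE1 over vector cells was known when the network was chosen. The shares in this paragraph are therefore description only. For MAX the distances were small (-0.06, 0.03 and 0.07 log2), and as deposited or with the length trend removed the pattern held for the other 4 (4 of 10 members, against 13.3% and 13.0% of rows). MXD1 and MXD3 lay below the median row in all 3 lines (2 of 10 members, against 7.85% of rows), although the MXD3 value in vector cells was -0.01, or 0.02 with the length trend removed. MNT lay above it in all 3 (1 of 10, against 7.69%). Among the 45 pairs of kept members, MXI1 and MLX had the most similar profiles over the 6 columns, with a root-mean-square difference of 0.07 log2 after each column was centred on its median and each row on its mean.

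The ubAPE1 response went with genomic length across the array, and the values belong beside those of the members. In the 2412 rows of the shortest genes (up to 11238 bp), which hold MYC, MYCN, MYCL, MXD3 and MLX, the median ubAPE1 response was 0.17 log2. In the 2412 rows of the longest genes (from 70927 bp), which hold MAX and MXI1, it was -0.16. The same classes had medians of -0.04 and 0.03 log2 in vector cells and -0.06 and 0.05 in wtAPE1 cells. MYCN lay further out than the median of its length bin in both directions, since these medians were -0.03 log2 in vector cells and 0.14 in ubAPE1 cells. The spread within the bin was not examined.

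**Figure D3:**
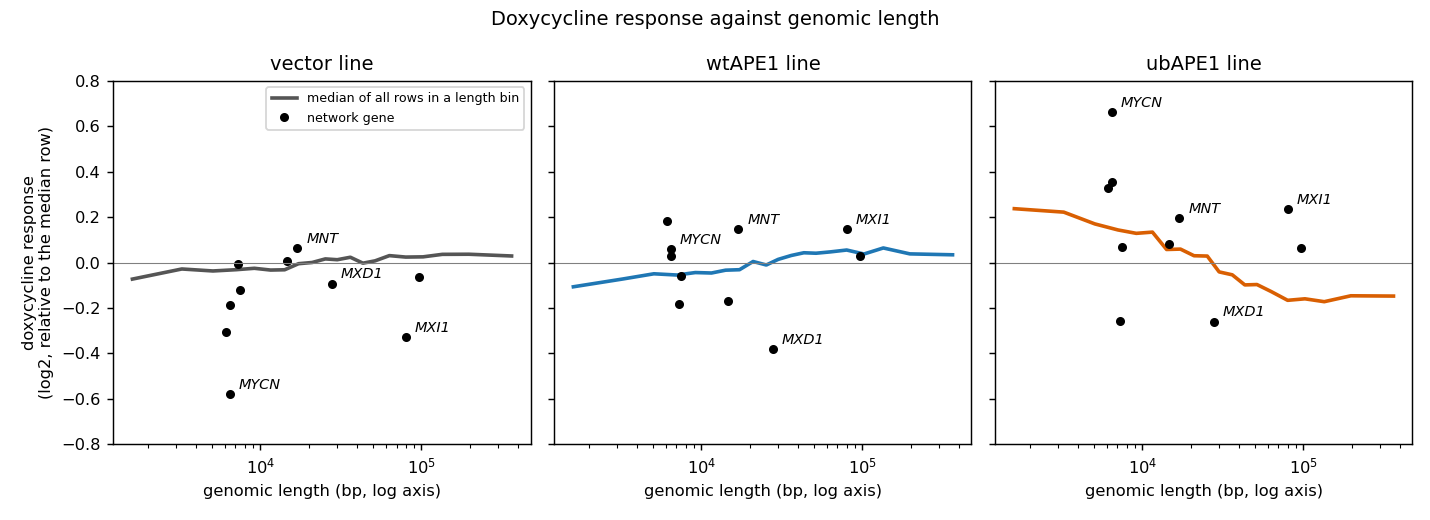
Doxycycline response (y axis: log2 relative to the median row) against genomic length (x axis: bp, log scale) in each line. Black points are the members and the line joins the medians of 20 length bins of kept rows. In the ubAPE1 panel the median falls from short to long genes, and MYCN at 0.66 lies above the 0.14 of its bin.

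The next comparison was of each member's response between lines. Each comparison with the vector line subtracts the same vector response, so these values are not independent of one another. The MYCN response was higher in ubAPE1 than in vector cells by 1.22 log2, or 2.33-fold, rank 12 of 11619 rows from the top, and by 1.04 with the length trend removed. In wtAPE1 cells it exceeded the vector response by 0.64 log2 (1.56-fold, rank 197). MLX had an excess of 0.61 log2 in the ubAPE1 and 0.49 in wtAPE1 cells, and MXI1 of 0.54 and 0.48. In the ubAPE1 comparison, MLX at 0.61 was the member that passed the 1.5-fold limit most narrowly and MXI1 at 0.54 the one that came closest without passing. With the length trend removed these places were exchanged, with MXI1 at 0.76 and MLX at 0.43. As counts, 1 of 10 members was at least 1.5-fold higher in the wtAPE1 comparison and 2 of 10 in the ubAPE1 comparison, beside 2.56% and 3.49% of rows. MYCN is in both counts, and its excess in ubAPE1 cells was known when the network was chosen. These shares are therefore description only.

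MYC itself was at 0.06 log2 in the wtAPE1 comparison and at -0.05 there after quantile normalization. In the ubAPE1 comparison it was at 0.17, like the median of 0.16 of its length bin, and at -0.02 with the length trend removed. MXD1 (-0.29 and -0.19) and MXD3 (-0.17 and -0.27) lay below the median row in both comparisons. Between the APE1 lines, the MYCN response was 0.62 log2 higher in ubAPE1 cells, the 1 member of 10 past 1.5-fold against 4.58% of rows higher. It was 0.39 with the length trend removed and 0.40 as deposited. None of these differences could be tested with 1 averaged column per group.

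The rows whose profile over the 6 columns came closest to that of MYCN were WFS1, BRI3, VWA1, LCE1F and GPR37L1. Their root-mean-square differences from MYCN were 0.07 to 0.10 log2 after centring, against a median of 0.35 over 9652 rows compared. WFS1, which encodes wolframin, an endoplasmic reticulum membrane protein, read 6.22 and 5.46 log2 in vector cells, 5.92 and 6.15 in wtAPE1 cells, and 5.81 and 6.37 in ubAPE1 cells. BRI3 read 8.70 and 7.95, 8.41 and 8.67, and 8.28 and 8.77 log2. Both, like MYCN, were lowest in the treated vector column.

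**Figure D4:**
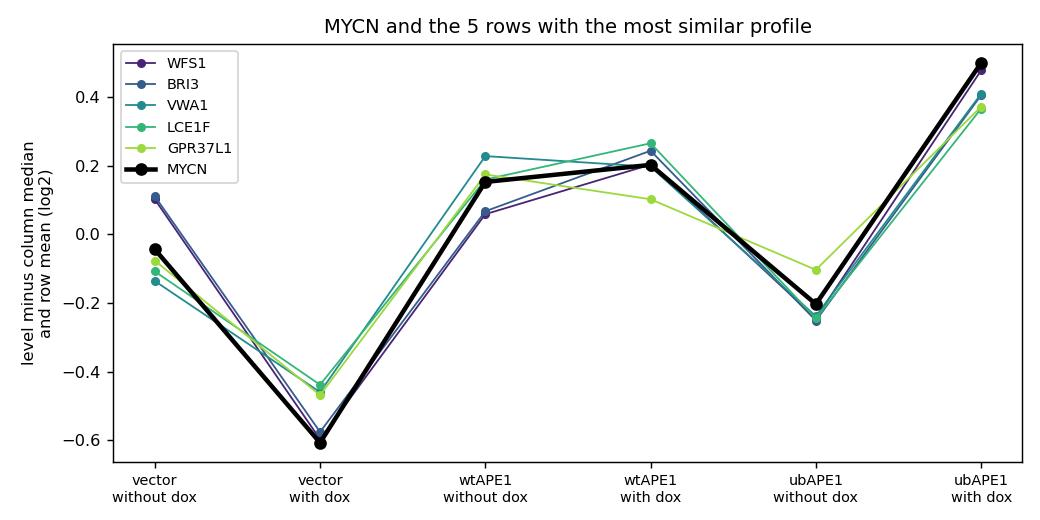
Profiles of MYCN and the 5 kept rows with the smallest root-mean-square difference from it over the 6 averaged columns (y axis: log2 level minus the column median and the row mean). The 6 profiles are lowest in the treated vector column and highest in the treated ubAPE1 column.

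limma was used to test whether a member's level differed between lines across treated and untreated columns, with the doxycycline states of a line standing in for replicates. Of the 10 kept members, 0 passed an adjusted p of 0.05 in wtAPE1 cells against the vector line, where 2.11% of rows passed (2.01% lower), and 0 in ubAPE1 cells, where 1.39% passed (1.31% lower). Of the 11619 kept rows, 1983 had an unadjusted limma p under 0.05 in the wtAPE1 comparison and 1339 in the ubAPE1 comparison. Computed on levels as deposited, 1 of the 10 kept members did so in each comparison, MXD1. Relative to the median row it differed from vector cells by -0.36 ± 0.15 log2 (SE) in wtAPE1 cells (limma adjusted p = 0.149) and by -0.33 ± 0.15 in ubAPE1 cells (limma adjusted p = 0.341), and lay below the vector value in both doxycycline states of either line. Over the alternative settings its adjusted p ranged from 0.0533 to 0.258 and from 0.301 to 0.496. With each column centred on its median, MYCN came nearer the threshold than MXD1. The limma adjusted p was then 0.0699 and 0.119 for MYCN, against 0.258 and 0.496 for MXD1.

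MYCN had the largest positive estimates, 0.48 ± 0.25 log2 in wtAPE1 cells (limma adjusted p = 0.499, range over the alternatives 0.0699 to 0.534) and 0.44 ± 0.25 in ubAPE1 cells (limma adjusted p = 0.688, range 0.119 to 0.734). Those means cover unlike states. Without doxycycline MYCN differed from the vector line by 0.16 and -0.18 log2 in the wtAPE1 and ubAPE1 lines, and with doxycycline by 0.77 and 1.05. MXD4 was at 0.34 ± 0.15 and 0.28 ± 0.15 log2 (limma adjusted p = 0.503 and 0.700). As deposited, the scale on which the p-values were computed, the differences were 0.33 and 0.36 log2 for MYCN, 0.19 and 0.21 for MXD4, and -0.51 and -0.41 for MXD1. MYC was at 0.23 ± 0.15 and 0.07 ± 0.15 log2 (limma adjusted p = 0.786 and 0.988), and as deposited at 0.08 and -0.01. With SEs of 0.15 to 0.25 log2 and 2 residual degrees of freedom, a missed threshold does not show that the lines have equal levels.

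**Figure D5:**
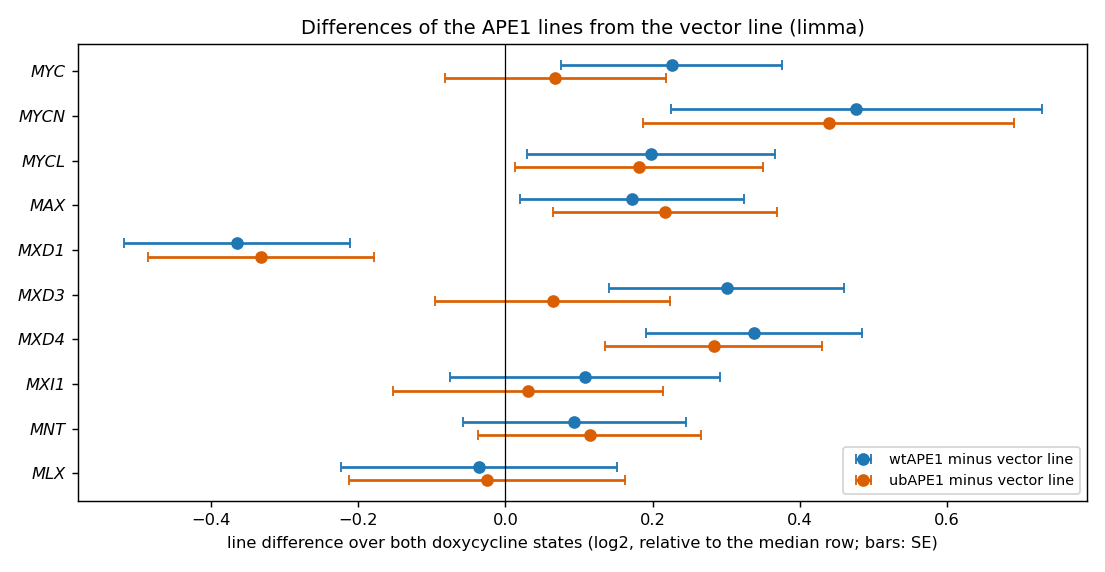
Difference of each APE1 line from the vector line over both doxycycline states (x axis: log2 relative to the median row, bars are the SE of the limma fit). MXD1 lies below 0 at -0.36 and -0.33 and MYCN above it at 0.48 and 0.44, and 0 of 10 members passed the adjusted threshold in either comparison.

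Between the ubAPE1 and wtAPE1 lines, 0 of 10 members passed in limma (0% of all rows did, 47 rows had an unadjusted p under 0.05 and 0 of these were members). The member values ran from -0.22 log2 (MXD3) to 0.06 (MAX) relative to the median row. For a doxycycline effect common to the lines, 0 of 10 members passed in limma as well, again with 0% of all rows, and 194 rows but 0 members had an unadjusted p under 0.05. MXD1 came nearest, at -0.25 ± 0.13 log2 relative to the median row (limma adjusted p = 1.00). MNT was highest at 0.13 ± 0.12 log2, and MYC was at -0.04 ± 0.12.

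Genes around the network were taken from 10 lists. The list values were not adjusted for genomic length. In ubAPE1 cells the median response of all rows was 0.17 log2 in the shortest and -0.16 in the longest genes, as given above. Of 7 measured E-box proteins outside the members, 7 lay above the median row in the ubAPE1 response (median 0.20 log2, median of all kept rows 0), 0 of them past 1.5-fold. As deposited not all were higher with doxycycline, since MLXIP read 7.47 and 7.41 log2 in ubAPE1 cells. MLXIPL, the glucose-sensing partner of MLX, was highest there at 0.45. For USF2, another E-box factor, the ubAPE1 response exceeded the vector response by 0.60 log2, the 1 gene of 7 past 1.5-fold in that difference, beside 3.49% of rows higher. The USF2 response was -0.37 log2 in vector cells and 0.25 in ubAPE1 cells. As deposited, USF2 read 9.27 and 8.86 log2 in vector cells and 8.90 and 9.02 in ubAPE1 cells. In the vector and wtAPE1 lines this list lay at -0.005 and -0.03.

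Cofactors and chromatin partners of MYC (11 measured) had median responses of -0.14 log2 in vector cells, 0.11 in wtAPE1 cells and 0.08 in ubAPE1 cells. CCNT1, the cyclin of the elongation kinase P-TEFb, and BPTF, a chromatin remodelling subunit, had wtAPE1 responses above their vector responses by 0.88 and 0.71 log2 (2 of 11, beside the 2.56% of rows higher and 1.52% lower). Their ubAPE1 responses differed from the wtAPE1 ones by -0.86 and -0.80 log2 (2 of 11, beside 7.66% of rows lower). The SIN3 and NCOR corepressors (8 measured) lay at 0.10, 0.13 and -0.05 log2 in the vector, wtAPE1 and ubAPE1 lines. The histone deacetylase HDAC1 was the 1 gene of 8 past 1.5-fold in a difference of responses, at -0.67 log2 for ubAPE1 minus wtAPE1, beside the same 7.66% of rows.

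Regulators of MYC protein stability (13 measured) had a median of -0.21 log2 in the ubAPE1 response and 0.16 in the wtAPE1 response, against 0.02 in vector cells. CIP2A, an inhibitor of the phosphatase that marks MYC for decay, was the 1 gene of 13 past 1.5-fold in a response, at -0.74 log2 in ubAPE1 cells, beside 3.81% of rows lower. Its levels there were 6.55 log2 without and 5.69 with doxycycline. Against the vector response, CIP2A was at -0.91 log2 and GSK3B, a kinase that phosphorylates MYC for decay, at -0.76 (2 of 13, beside 9.74% of rows lower). Against the wtAPE1 response, CIP2A was at -0.71 and USP28, a deubiquitinase that stabilises MYC, at -0.59 (2 of 13, beside 7.66%). Regulators of MYC and MYCN transcription (9 measured) lay at 0.04, 0.13 and 0.004 log2, with 0 past 1.5-fold in any line. FUBP1, which binds upstream of MYC, was at -0.51 log2 in ubAPE1 cells. CTNNB1 (-0.72), which encodes beta-catenin, and E2F3 (-0.65) were the 2 of 9 genes past 1.5-fold against the vector response, beside 9.74% of rows lower. Against the wtAPE1 response they were FUBP1 (-0.75) and CTNNB1 (-0.59), again 2 of 9, beside 7.66% of rows lower.

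Known MYC-induced genes were described in 3 lists. Genes of metabolism and growth (16 measured) had a median of 0.07 log2 in the vector response, 0.01 in the wtAPE1 and -0.11 in the ubAPE1 response. In ubAPE1 cells 4 of 16 were at least 1.5-fold lower, beside the 3.81% of rows given above: the cap-binding factor EIF4E (-1.23 log2), the transferrin receptor TFRC (-0.71), and the purine synthesis enzymes PAICS (-0.66) and PPAT (-0.62). In wtAPE1 cells EIF4E was at -0.80 and the peroxiredoxin PRDX3 at 0.78 (2 of 16, beside 0.93% of rows in either direction). Earlier results had already named EIF4E and PRDX3 when the list was made. Set against the vector response, 5 of 16 were at least 1.5-fold lower in ubAPE1 cells, beside 9.74% of rows, among them EIF4E (-1.14), TFRC (-1.01) and PPAT (-0.94). Ribosome biogenesis genes (12 measured) lay at -0.04, 0.06 and -0.07 log2 in the 3 lines, with POLR1B, a subunit of RNA polymerase I, at -0.62 in ubAPE1 cells and at -0.99 against its vector response (1 of 12 each, beside 3.81% and 9.74% of rows lower). Cell cycle and chaperone genes (13 measured) lay at 0.04, -0.06 and -0.05 log2, with 0 past 1.5-fold in any line.

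Genes that MYC represses (9 measured) lay at -0.08, -0.06 and 0.14 log2 in the vector, wtAPE1 and ubAPE1 responses, with 0 past 1.5-fold. Against the vector response, NDRG2 was at 0.59 log2 in ubAPE1 cells, and CEBPA was at 0.61 against the wtAPE1 response (1 of 9 each, beside 3.49% and 4.58% of rows higher). In wtAPE1 cells NDRG2 was at 0.582 log2 against the vector response, just short of 1.5-fold. The NDRG2 responses themselves were -0.44, 0.14 and 0.17 log2 in the vector, wtAPE1 and ubAPE1 lines. Between the lines, CLU, which encodes the secreted chaperone clusterin, was lower than in vector cells, with a difference of -1.22 ± 0.16 log2 in wtAPE1 cells (limma adjusted p = 0.00442) and of -1.14 ± 0.16 in ubAPE1 cells (limma adjusted p = 0.00799). Over the 9 alternatives of each comparison CLU kept passing, with an adjusted p of at most 0.00642 and 0.0112. It read 8.38 and 8.25 log2 in vector cells and 6.89 to 7.18 in the APE1 lines, without overlap. CLU was the 1 of 102 measured entries of the 10 lists that passed in these comparisons, a share no higher than the 2.11% and 1.39% of all rows. As deposited, to which the p-values belong, its differences were -1.37 and -1.21 log2. CCND2, a cyclin of the G1 phase, was at -0.64 and -0.67 log2, or -0.79 and -0.74 as deposited (limma adjusted p = 0.0579 and 0.0890, ranges over the alternatives 0.0146 to 0.0742 and 0.0117 to 0.120), and passed in 5 and 4 of the 9 alternatives. The targets of MLX and the Mondo proteins (4 measured) lay at 0.08, 0.001 and 0.07 log2 in the vector, wtAPE1 and ubAPE1 responses. In the ubAPE1 response 3 of 4 lay above the median row. The 1 below it was TXNIP, a glucose-regulated brake on glucose uptake. TXNIP was at 0.32 log2 in the vector response, -0.02 in the wtAPE1 and -0.48 in the ubAPE1 response. Its response in ubAPE1 cells differed from that in vector cells by -0.82 log2, the 1 gene of 4 past 1.5-fold, beside 9.74% of rows lower. The list median of that difference was 0.09 log2.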

How the data were processed

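RNA levels came from Affymetrix exon arrays. The deposited values are log2 levels per transcript cluster, averaged over 3 replicates by the authors per the labels. Their range set the log2 scale, hg 18 is the build in the submitters' processing notes, and for background correction, summarisation and normalization the method is not given in the sources used here. Rows were named through the platform's annotation where it gave 1 symbol (12616 of 15492 rows, of which 12602 matched the RefSeq gene table). Rows with a mean at or above the 25th percentile (5.03 log2) were kept (11619). Differences between single columns were described by size (1.5-fold). limma (version 3.58.1, R 4.3.3; lmFit, eBayes, Benjamini-Hochberg over all kept rows, 0.05) was fitted with terms for line and for treatment (residual degrees of freedom 2, prior 6.28), and was tested on simulated data. The p-values measure evenness over doxycycline states or lines, not replicates. Adjusted p-values belong to differences as deposited. Genomic lengths are gene spans on GRCh38.p14, and the length trend is the median within 20 length bins.

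The members and lists were chosen with earlier results of these data known. Named were all members, and from each list up to 3 genes with the largest change past a threshold, or else the 1 with the largest change. The text leaves out some of these, and adds PPAT as a response and the MXI1 and MLX pair, chosen after their values were seen. Profiles like a member's were sought where its centred range reached 1 log2, which applied to MYCN. For each listed gene the row with the highest mean was used. Alternatives were other row filters, centring, quantile normalization, raising low values (under 4.09 log2), length trend removal, a 2-fold rule, an intensity trend with robust eBayes, leaving out lines or terms, all rows of listed genes and, chosen after seeing the data, differences as deposited.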

Additional observations from a re-analysis of the deposited data

Results flagged for a closer look

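The MYCN response to doxycycline was of opposite sign in the vector line and the APE1 lines. It differed by 0.64 log2 between the wtAPE1 and vector lines and by 1.22 log2 between the ubAPE1 and vector lines, relative to the median row. The MLX response was also opposite in sign, and differed by 0.61 log2 between the ubAPE1 and vector lines. These differences were not tested, since each group is 1 averaged column, and the dim second MYCN row gave -0.03 and -0.21 log2 for the same comparisons.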

How the results depend on the processing

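The counts of members past 1.5-fold were small, and several changed by 1 or 2 genes. In the ubAPE1 minus vector comparison 3 members passed with the filter at the 50th percentile (MXI1 at 0.59 log2) and after quantile normalization (MXI1 at 0.61). Without the row filter, 1 member passed in the vector response (MYCN at -0.59 log2), 1 in the ubAPE1 minus vector comparison (MLX at 0.57 no longer passed) and 0 in the ubAPE1 minus wtAPE1 comparison (MYCN at 0.53). With the length trend removed, 0 passed in the ubAPE1 response and 0 in the ubAPE1 minus wtAPE1 comparison. As deposited, 1 passed in the vector response (MYCN at -0.63), 0 in the ubAPE1 response, 3 in the wtAPE1 minus vector comparison (MYCN, MXI1 at 0.60 and MLX at 0.60), 1 in the ubAPE1 minus vector comparison and 0 in the ubAPE1 minus wtAPE1 comparison. Under the 2-fold rule, 0 passed in the ubAPE1 response, 0 in the wtAPE1 minus vector, 1 in the ubAPE1 minus vector (MYCN) and 0 in the ubAPE1 minus wtAPE1 comparison. The cause was not tested.

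In limma, 0 members passed in any comparison under any alternative run. Over all rows, the wtAPE1 minus vector count of 245 became 112 with the stricter filter, 656 with columns centred, 624 after quantile normalization, 627 with the length trend removed, 973 without the ubAPE1 line and 399 without the doxycycline term. The ubAPE1 minus vector count of 162 became 62, 539, 468 and 531 in the same order, 327 without the wtAPE1 line and 258 without the doxycycline term. Of the calls, 12 were higher and 233 lower (10 and 152 for ubAPE1), against 188 and 468 (126 and 413) with columns centred and 151 and 473 (109 and 359) after quantile normalization. With columns centred, 1 row passed between the APE1 lines and 9 for the common doxycycline effect, for which 2 passed after quantile normalization. No kept gene of a list had more than 1 kept row, so using all rows left the list medians as they were. The log2 values carry no detection calls, so signal over background is unknown, and the number of arrays limits the precision. The line term sets treated against untreated columns within a line, and leaving it out added no call for the common doxycycline effect. Pairing by replicate could not be examined, since the columns are means without replicate numbers.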
